A study of Homo sapiens with 4 samples.

Results

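The 10 genes described here encode the Aurora kinases AURKA and AURKB, the partners of AURKB in the chromosomal passenger complex (INCENP, BIRC5 and CDCA8), the kinase PLK1, and the spindle checkpoint proteins BUB1, BUB1B, TTK and MAD2L1. They were taken by gene symbol, and all 10 were found among the 19946 symbols that were kept in the deposited tables. The genes were selected on earlier results of the same si-152 against si-NC difference, in which G2/M phase genes, AURKB among them, were lower in si-152. Their differences between these groups are therefore given as a description, without a test.

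HCT116, a human colorectal carcinoma cell line, received either a non-targeting control siRNA (si-NC) or an siRNA against the long noncoding RNA LINC00152 (si-152). Both siRNAs were used at 100 nM in DMEM with serum, and RNA was taken after 36 h. Each group held 2 biological replicates, so any p-value speaks only for cultures of the same line. The p-values and standard errors come from limma, which draws the variance of a gene towards that of genes of like level. The level of LINC00152 itself was not analysed here, so the knockdown was not checked.

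Mitosis is driven by kinases that are made in G2 and destroyed as cells divide. The Aurora kinases and PLK1 build the spindle and correct wrong attachments of chromosomes to it. The spindle checkpoint holds cells before anaphase until every kinetochore is attached, by keeping CDC20 from activating the anaphase-promoting complex. Transcripts of these proteins peak in G2 and mitosis, and are made under the control of the MuvB complex with MYBL2 and FOXM1. MuvB binds an element called CHR, whose core letters are TTTGAA, near the start of its target genes. In cultured cells taken as a whole, fewer cells in G2 and mitosis and less RNA per cell cannot be told apart.

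Each library was deposited as 1 value per gene symbol, read here as FPKM (fragments scaled to transcript length and to the size of the library), a level per length that can be compared between genes. The FPKM sums lay between 424755 and 534311. Read depth is unknown, and the counting error of the values could not be estimated without counts. Of the epithelial markers EPCAM, CDH1, KRT8, KRT18, KRT19, CDX1, CDX2 and VIL1, 6 of 8 were expressed, with a summed level of 3026 and 3529 FPKM (si-NC) against 2386 and 2972 FPKM (si-152). CDX1 was listed at 0 in all 4 libraries and VIL1 at 0 in 3 of them. Of 7 markers of leukocytes, endothelium and fibroblasts, only COL1A1 passed the filter, and their summed level was 7.12 to 8.13 FPKM in si-NC and 7.17 to 7.94 FPKM in si-152. PTPRC, which defines leukocytes, and COL1A2 were listed at 0 in every library. In the first principal component, which held 54.3% of the variance, replicate 1 lay apart from replicate 2 in both groups.

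To show what the genes share in their promoters, RefSeq windows from 250 bases before to 50 bases after each annotated start (GRCh38.p14) were searched on both strands. Windows were found for 7 of the 10 genes, namely AURKB, INCENP, CDCA8, PLK1, BUB1, BUB1B and MAD2L1. The letters TTTGAA occurred in 5 of these 7, against 9.83% of the 12705 windows of tested genes. Of 65 other mitotic genes with a window, from the lists described below, 27 held them as well. In the 5 genes they occurred on the coding strand each time. Counted from the start to the first T, they lay at position -10 in INCENP, -23 in CDCA8, -23 in BUB1B, -29 in PLK1 and 25 in MAD2L1. The 5 sites are given with their flanks, 5′ to 3′ on the coding strand, with the CHR core in capitals.

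INCENP: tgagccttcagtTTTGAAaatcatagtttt
CDCA8: gtgactgtggagTTTGAAttgggtggcggt
BUB1B: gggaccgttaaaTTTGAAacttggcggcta
PLK1: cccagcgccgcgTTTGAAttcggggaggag
MAD2L1: tgcgtcgttactTTTGAAacgcttggcggg

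These sites lie at chr11:62123989-62124018, chr1:37692481-37692510, chr15:40161034-40161063 and chr16:23678848-23678877 on the plus strand, and at chr4:120066807-120066836 on the minus strand. The 60 bases just before the start were a stretch chosen after the matches were seen. There, 4 of the 7 genes held TTTGAA, against 1.64% of all windows and 10 of the 65 other mitotic genes. The letters CCAAT, the binding site of NF-Y, occurred on either strand in 6 of the 7 genes (all but BUB1B). They occurred in 34.6% of all windows and in 40 of the 65 other mitotic genes. The E2F letters TTTGGCGC and TTTCCCGC occurred in 0 of the 7 genes, against 0.984% and 2.48% of all windows. They occurred in 3 and 5 of the 65 other mitotic genes. Such matches are letters in a window and not shown sites of binding. The 2 AURKB windows and the PLK1 window (chr16:23678639-23678938) lie inside their genes as GENCODE v29 annotates them. The regions before those annotated gene starts were therefore not searched. The MAD2L1 window (chr4:120066799-120067098) lies mostly inside its gene too. The 5 printed sites, those of INCENP, CDCA8 and BUB1B included, all lie inside the genes as GENCODE v29 annotates them. Positions before the start therefore refer to the RefSeq start alone.

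The genes differed widely in level among themselves, and 3 of the 4 checkpoint genes were almost equal. MAD2L1 (54.8 FPKM as the mean of the 4 libraries), PLK1 (52.7 FPKM) and BIRC5 (46.0 FPKM) were the highest, and their ranges over the libraries overlapped. AURKB followed at 35.1 FPKM, AURKA at 29.6 FPKM and CDCA8 at 20.8 FPKM. TTK (15.3 FPKM), BUB1 (15.0 FPKM) and BUB1B (14.0 FPKM) had ranges that overlapped. INCENP, the scaffold that holds the passenger complex together, was the lowest at 6.80 FPKM, at the 38.7th percentile of the 11204 tested genes, while the other 9 lay between the 60.8th and the 88.9th percentile. On GRCh38 (GENCODE v29), the Aurora and passenger genes lie at chr20:56369389-56392337 (AURKA), chr17:8204733-8210600 (AURKB), chr11:62123973-62153163 (INCENP), chr17:78214186-78225636 (BIRC5) and chr1:37692418-37709719 (CDCA8). PLK1 lies at chr16:23677656-23690367, and the checkpoint genes lie at chr2:110637698-110678114 (BUB1), chr15:40161023-40221136 (BUB1B), chr6:80003887-80042527 (TTK) and chr4:120055608-120067074 (MAD2L1). Of the exonic bases of PLK1, 11.6% are shared with an antisense gene (AC008870.3), and 10.2% of those of BUB1B with the readthrough gene BUB1B-PAK6. Reads there could not be assigned with certainty. For PLK1 it is not stated whether strand was used, and BUB1B-PAK6 lies on the same strand as BUB1B.

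**Figure D1:**
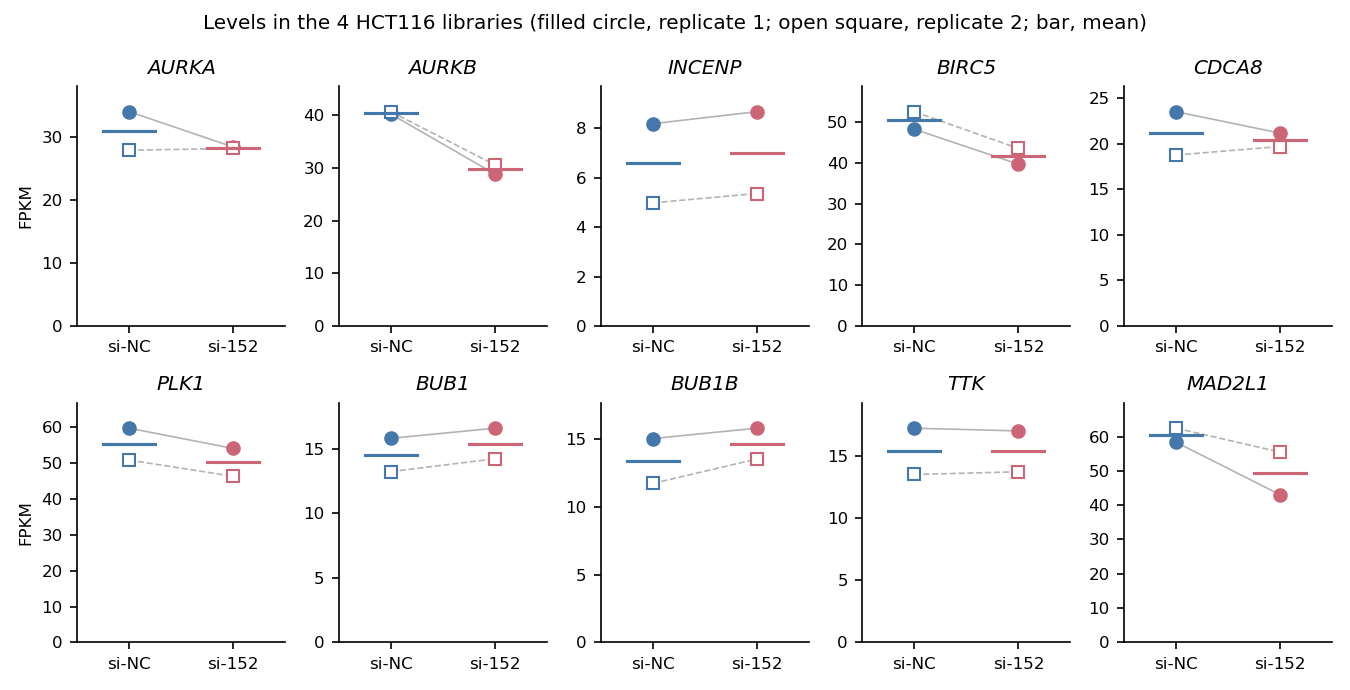
Level in FPKM (y axis, from 0) of each gene in the si-NC and si-152 libraries (x axis), with filled circles for replicate 1, open squares for replicate 2, bars for the mean of each group and grey lines joining libraries with the same number. The groups do not overlap for AURKB, BIRC5 and MAD2L1, and in the other 7 genes the replicate means stand further apart than the group means.

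In the passenger complex, AURKB and BIRC5 lay lower in si-152 without overlap, and CDCA8 and INCENP overlapped between the groups. AURKB is the kinase of the complex, which destabilises wrong attachments and is needed for cytokinesis. AURKB measured 40.2 and 40.7 FPKM in replicates 1 and 2 of si-NC, against 28.9 and 30.6 FPKM in those of si-152. Both si-152 libraries were thus below both si-NC libraries, and the difference was larger than the spread between replicates. The group means were 40.5 ± 0.327 and 29.7 ± 1.24 FPKM (SD, n = 2), so that si-152 was at 73.5% of si-NC. The difference was -0.43 on the log2(FPKM + 1) scale (standard error 0.16). Here and below the standard error draws on the variance of other genes and is not the spread of the gene alone. On the same scale the AURKB replicates differed by 0.02 in si-NC and 0.08 in si-152. For genes of low level, adding 1 makes a change look smaller than it is. BIRC5 (survivin) targets the complex to the centromere. BIRC5 measured 48.2 and 52.5 FPKM in the si-NC libraries, against 39.7 and 43.5 FPKM with si-152. Its groups did not overlap either, and the difference was -0.27 (standard error 0.16).

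CDCA8 (borealin), which binds BIRC5 and INCENP, measured 23.5 and 18.7 FPKM in the si-NC libraries, against 21.1 and 19.7 FPKM with si-152. It was lower in si-152 in replicate pair 1 (89.99% of si-NC) and higher in pair 2 (105% of si-NC). INCENP measured 8.19 and 4.98 FPKM in the si-NC libraries, against 8.68 and 5.36 FPKM with si-152. Here the 2 libraries of each group differed far more than the groups, with a difference of 0.08 (standard error 0.27) on the log2 scale. The standard errors of the siRNA differences come from a fit without the replicate number. With the replicate number as a block, that of INCENP was 0.11. Ratios between the genes of a library do not depend on scaling. The ratio of AURKB to CDCA8 was 1.71 and 2.17 in si-NC and 1.37 and 1.56 in si-152, and these did not overlap. The ratio of AURKB to INCENP was 4.91 and 8.17 in si-NC and 3.33 and 5.71 in si-152, and these overlapped. The ratios of BIRC5 overlapped too, with 2.05 and 2.80 against 1.88 and 2.21 to CDCA8, and 5.89 and 10.5 against 4.57 and 8.12 to INCENP. Differences between the genes of the complex were not tested.

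AURKA, which acts at centrosomes and spindle poles, measured 33.9 and 27.8 FPKM in the si-NC libraries, against 28.4 and 28.1 FPKM with si-152. Only si-NC replicate 1 stood apart, and the difference was -0.12 (standard error 0.17). The ratio of AURKB to AURKA was 1.19 and 1.46 in si-NC and 1.02 and 1.09 in si-152, without overlap. PLK1, which acts from mitotic entry to cytokinesis, measured 59.7 and 50.8 FPKM in the si-NC libraries, against 54.0 and 46.3 FPKM with si-152. PLK1 was lower in si-152 within both pairs, by 0.14 and 0.13 on the log2 scale in size, but the groups overlapped, since si-152 replicate 1 lay above si-NC replicate 2.

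Among the checkpoint genes, the groups did not overlap in MAD2L1 and overlapped in BUB1, BUB1B and TTK. MAD2L1 encodes MAD2, which binds CDC20 in the inhibitory complex. MAD2L1 measured 58.3 and 62.4 FPKM in the si-NC libraries, against 43.1 and 55.5 FPKM with si-152. The groups did not overlap, at -0.30 (standard error 0.18) on the log2 scale, but the 2 si-152 libraries lay far apart, at 73.8% and 88.9% of the si-NC library with the same number. BUB1, a kinase of the outer kinetochore that marks centromeric histone H2A, measured 15.8 and 13.2 FPKM in the si-NC libraries, against 16.6 and 14.2 FPKM with si-152. BUB1B encodes BUBR1, a part of the inhibitory complex with MAD2. BUB1B measured 15.0 and 11.7 FPKM in the si-NC libraries, against 15.8 and 13.5 FPKM with si-152. Both were higher in si-152 within each pair, by 0.08 (standard error 0.18) and 0.13 (standard error 0.19) over both pairs, and the groups overlapped. TTK (MPS1), the kinase that starts checkpoint signalling, measured 17.2 and 13.5 FPKM in the si-NC libraries, against 17.0 and 13.7 FPKM with si-152. Its si-152 mean was 100% of its si-NC mean. The ratio of MAD2L1 to BUB1B was 3.88 and 5.33 in si-NC and 2.73 and 4.11 in si-152, and that of MAD2L1 to BUB1 was 3.69 and 4.71 against 2.59 and 3.90. Both ratios overlapped between the groups.

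Across the 10 genes, both si-152 libraries lay below both si-NC libraries in 3 genes (AURKB, BIRC5 and MAD2L1), as they did in 14.0% of the 11204 genes tested. Both lay above both si-NC libraries in 0 of the 10, and in 16.5% of all genes. Within both same-numbered pairs, 4 genes were lower (AURKB, BIRC5, MAD2L1 and PLK1), against 27.3% of all genes. In the same way 3 genes were higher (INCENP, BUB1 and BUB1B), against 35.7%. Nothing is read from these counts, since the genes were chosen with this difference known. The median difference of the 10 genes was -0.08, against 0.02 for all genes, and it was -0.14 in pair 1 and 0.02 in pair 2, where all genes had medians of -0.03 and 0.07. Without si-NC replicate 1 the median of the 10 genes was 0.07 and without si-NC replicate 2 it was -0.22, so its direction depended on a single control library. The medians of all genes were then 0.07 and -0.04. Without each library in turn, AURKB stayed between -0.47 and -0.39, BIRC5 between -0.34 and -0.21, and MAD2L1 between -0.48 and -0.12. With size factors the groups of AURKA and PLK1 did not overlap either, which made 5 genes in place of 3. Without si-NC replicate 2, the remaining si-NC library lay above both si-152 libraries in 7 of the 10. Groups separate more easily when a single control library is left. The shares of all genes in these settings were not counted, so nothing is read from these counts either.

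To check replicate effects, the difference between the libraries numbered 2 and 1 was tested with limma in a fit with the siRNA group as a term. This difference was not used to choose the genes. In INCENP it was -0.61 (standard error 0.11), lower in replicate 2 of both groups, and limma gave an adjusted p of 0.0339. Over the alternatives the adjusted p of INCENP lay between 0.0148 and 0.204. INCENP in replicate 2 was at 60.9% of replicate 1 in si-NC and at 61.8% in si-152. TTK (-0.31, unadjusted p = 0.0198 by limma) and BUB1B (-0.27, unadjusted p = 0.0375 by limma) were also lower in replicate 2, with adjusted p-values of 0.0926 and 0.128. These 3 of the 10 genes stand beside 19.8% of all genes that were lower in replicate 2 at an unadjusted p under 0.05. On the higher side there were 0 of the 10, and 13.5% of all genes. At an adjusted p under 0.05, INCENP was the only gene of the 10 that was lower, as were 4.65% of all genes. In 7 of the 10 (all but AURKB, BIRC5 and MAD2L1), both replicate 2 libraries lay below both replicate 1 libraries, against 33.6% of all genes. A gene with both si-152 libraries below both si-NC libraries cannot show this order. The absence of these 3 genes was thus fixed by their siRNA difference, and nothing is read from it. The replicate differences of AURKB (0.05), BIRC5 (0.13) and MAD2L1 (0.23) did not pass an unadjusted p of 0.05. Their sign depended on the processing in AURKB, which was at -0.0064 with quantile normalization, and in BIRC5, which was at -0.04 with the length trend removed. MAD2L1 was higher in replicate 2 at an unadjusted p under 0.05 with size factors (0.31), which made 1 of the 10 in place of 0.

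**Figure D2:**
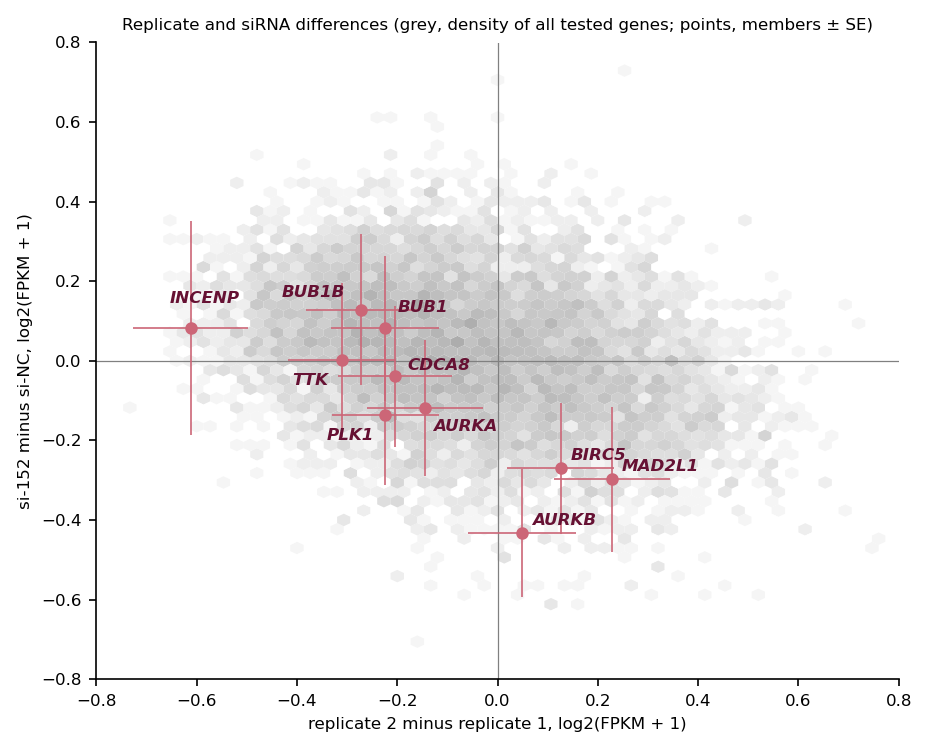
Difference between replicate 2 and replicate 1 (x axis) and between si-152 and si-NC (y axis), both on the log2(FPKM + 1) scale. Points are the 10 genes with their standard errors, and grey cells show the density of all tested genes, of which 158 lie outside the axes. INCENP lies furthest to the left at -0.61, and AURKB, BIRC5 and MAD2L1 lie lowest, from -0.43 to -0.27.

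The replicate difference moved with gene length across all genes. Over the 11133 genes with a coding sequence in GENCODE v29, the Spearman correlation of the longest coding length with the replicate difference was -0.51, and with the siRNA difference it was 0.27. With whole transcript length in its place, over 11141 genes, these correlations were -0.67 and 0.29. That of GC percent with the replicate difference was 0.45. All are across genes of the same 4 libraries, and genes are not independent. Replicate 2 was higher than replicate 1 by a median of 0.18 in the 2209 genes with under 750 coding bases and lower by a median of -0.26 in the 2213 genes with 2500 or more. The siRNA difference ran the other way, with medians of -0.07 and 0.08 in these classes. BIRC5 and MAD2L1 have coding lengths of 495 and 615 bases, AURKB, AURKA and CDCA8 of 1035, 1209 and 840 bases, and PLK1 of 1809 bases. The 4 genes with 2571 to 3255 coding bases are TTK, INCENP, BUB1B and BUB1. The Spearman correlation of coding length over these 10 genes was -0.84 with the replicate difference. It was 0.83 with the siRNA difference, on which the genes were chosen. By whole transcript the order changes, with MAD2L1 the longest of the 10 at 5468 bases and BIRC5 at 2711 bases. Correlations over the 10 genes were not taken with that length.

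The trend of each library with coding length was then removed, a step chosen after the data were seen. The siRNA differences were -0.42 in AURKB, -0.24 in MAD2L1 and -0.19 in BIRC5. Those of INCENP, BUB1 and BUB1B were 0.02, 0.0080 and 0.06. The replicate difference of INCENP was then -0.43, with an unadjusted p of 0.00494 by limma, that of BUB1 was -0.0081 and that of BUB1B was -0.06. That of CDCA8 was -0.27, with an unadjusted p of 0.0215 by limma, against -0.21 with the trend. The part of gene length in the differences of the 10 genes was not tested.

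**Figure D3:**
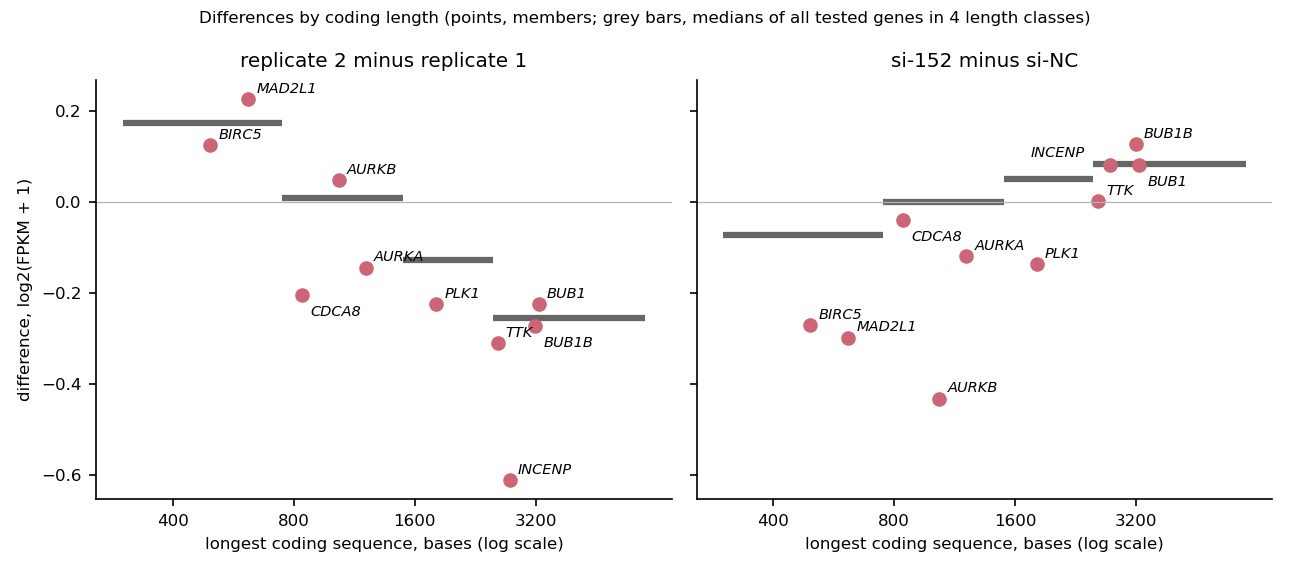
Replicate difference (left) and siRNA difference (right) on the log2(FPKM + 1) scale (y axis) against the longest coding length in bases (x axis, log scale). Points are the 10 genes and grey bars are the medians of all tested genes in 4 length classes, which fall from 0.18 to -0.26 on the left and climb from -0.07 to 0.08 on the right.

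The other genes of mitosis were taken from 6 lists of 74 genes, of which 73 passed the filter on low values (AURKC did not). At an unadjusted p under 0.05 by limma, 1 of the 73 was lower (CCNA2) and 1 was higher (ZW10), against 2.51% and 1.89% of all genes, and 0 passed adjustment over all genes. Cyclin A2 (CCNA2) activates CDK1 and CDK2 before mitosis. CCNA2 measured 32.2 and 28.8 FPKM in the si-NC libraries, against 24.4 and 21.6 FPKM with si-152. Its difference was -0.39 (standard error 0.17), with an unadjusted p of 0.0427 and an adjusted p of 1.00 by limma, and within the pairs it was -0.39 and -0.40. Without each library in turn it lay between -0.48 and -0.31, and each time its unadjusted p was above 0.05 (0.0505 to 0.213 by limma). ZW10, part of the complex that brings MAD1 and MAD2 to kinetochores, measured 5.57 and 4.20 FPKM in the si-NC libraries, against 8.50 and 8.48 FPKM with si-152. Its difference was 0.70 (standard error 0.20), with an unadjusted p of 0.00589 and an adjusted p of 0.762 by limma.

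The lists were chosen with lower G2/M genes in si-152 known, and differences between lists were not tested. Groups without overlap are given by role, beside 14.0% of all genes lower and 16.5% higher. In the 17 genes of cyclin B-CDK1 and of mitotic entry and exit, both si-152 libraries lay below both si-NC libraries in 8 and above in 1, and the list median was -0.10. CCNB1 (cyclin B1) measured 79.99 and 62.3 FPKM in the si-NC libraries, against 63.2 and 52.7 FPKM with si-152, where si-152 replicate 1 lay just above si-NC replicate 2. CDK1, its kinase, measured 45.7 and 41.3 FPKM in the si-NC libraries, against 42.4 and 41.8 FPKM with si-152. Of the 10 genes of the kinetochore KMN network, which binds microtubules and recruits BUB1 and TTK, 3 lay lower without overlap and 1 higher, with a median of -0.16. Of 10 further checkpoint genes, 1 lay lower (CDC20) and 1 higher (ZW10) without overlap. CDC20, the target of the checkpoint, measured 138.2 and 146.3 FPKM in the si-NC libraries, against 126.0 and 125.8 FPKM with si-152, with a difference of -0.17 (standard error 0.18). BUB3, the partner of BUB1 and BUB1B, measured 121.8 and 112.7 FPKM in the si-NC libraries, against 109.4 and 117.2 FPKM with si-152, and the groups overlapped.

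Among the 8 tested Aurora partners the median was -0.06, and 1 lay lower without overlap. TPX2, which activates AURKA on the spindle, measured 49.7 and 36.4 FPKM in the si-NC libraries, against 41.0 and 38.4 FPKM with si-152, a pattern with si-NC replicate 1 apart, as in AURKA. Of 18 genes of the anaphase-promoting complex and its cofactors, 2 lay lower and 1 higher without overlap, with a median of -0.05. The 10 transcription regulators of mitotic genes had a median of 0.10, and 3 of them lay higher without overlap. FOXM1 measured 21.7 and 16.2 FPKM in the si-NC libraries, against 18.9 and 14.5 FPKM with si-152, with overlap. MYBL2 measured 27.5 and 24.9 FPKM in the si-NC libraries, against 24.1 and 23.0 FPKM with si-152, without overlap, at -0.15 (standard error 0.16). Over the 73 genes, 16 lay lower and 7 higher without overlap, beside 14.0% and 16.5% of all genes, and the median was -0.06.

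**Figure D4:**
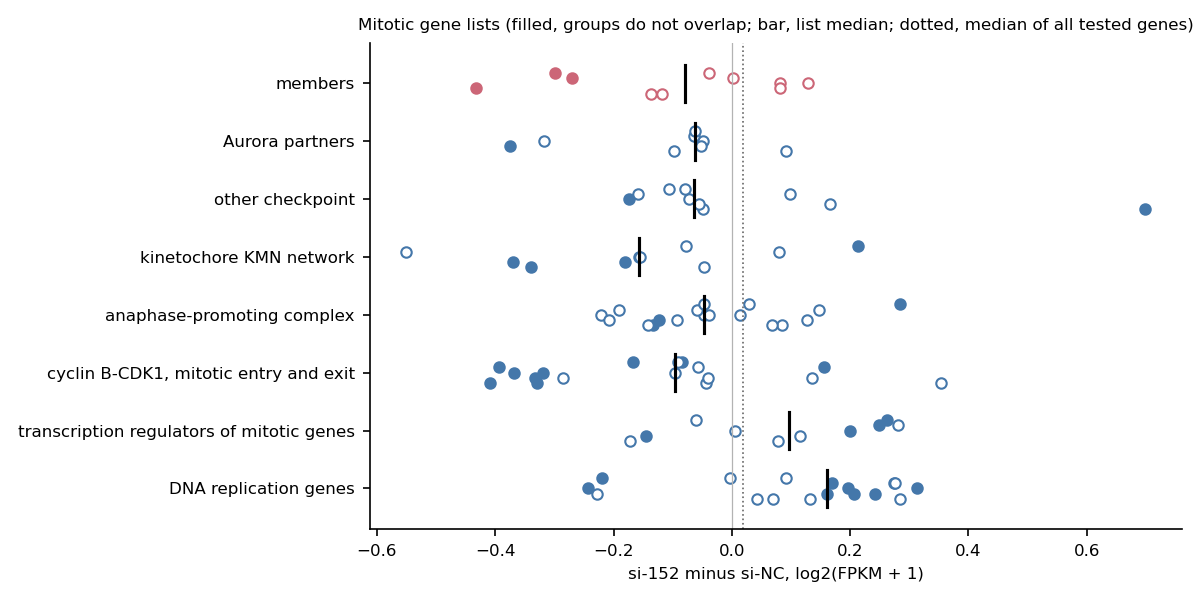
Difference between si-152 and si-NC on the log2(FPKM + 1) scale (x axis) for the 10 genes, called members in the plot, and for the other lists (y axis). Filled points are genes whose groups do not overlap, black bars are list medians and the dotted line is the median of all tested genes (0.02). Only ZW10 lies beyond 0.6 on the right, and 8 of the 17 points in the cyclin B-CDK1 row are filled and left of 0.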

How the data were processed

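RNA of 4 HCT116 libraries (2 si-NC, 2 si-152) was sequenced by the authors. Each deposited table holds gene symbols, each with 1 value. No header gives a unit, and the values the authors deposited were read as FPKM because they carry decimals and their sums differ. The submitters' processing notes name Trimmomatic, TopHat, HISAT2, HTSeq, DESeq and GRCh38, without roles. The annotation is not given in the sources used here. The design followed the study's comparison of 2 groups, but its DESeq test needs counts, which were not used here.

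Of 19974 rows, 28 read as dates and were left out. Values were tested as log2(FPKM + 1) with limma 3.58.1 (R 4.3.3, mean-variance trend, Benjamini-Hochberg adjustment) in the 11204 genes that reached 1 FPKM in 2 or more libraries. The fit was also run on simulated data of independent noise. Those data held no length trend and no replicate effect across genes, unlike these libraries, so nothing is read from that run. The replicate test left 1 residual degree of freedom, which holds how far the replicate difference of a gene differed between the groups. Lengths came from GENCODE v29 and promoter windows from RefSeq, both on GRCh38. The genes, lists and motifs were chosen with earlier results of these data known. Genes named were the 10, any list gene with an unadjusted p under 0.05, and CDK1, CCNB1, CDC20, TPX2, BUB3, FOXM1 and MYBL2. Alternatives to scaling, pseudocount, filter, block and library choice were tried, and removal of the length trend was added after the data were seen.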

Additional observations from a re-analysis of the deposited data

How the results depend on the processing

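At an unadjusted p under 0.05, 493 of the 11204 genes passed by limma, and 1888 with the replicate number as a replicate block. With size factors 547 passed, with quantile normalization 649 and with the length trend removed 748. Without a filter 794 of 15701 genes passed. The list counts that follow, from 73 tested genes with the filter, stand beside these counts. Without each library in turn the count lay between 304 (without si-152 replicate 1) and 714 (without si-152 replicate 2). In the 6 mitotic lists 2 genes passed, against 14 with the replicate block, 5 with size factors, 6 with quantile normalization, 4 without a filter and 9 without the length trend, and between 1 (ZW10, without si-NC replicate 1) and 4 (without si-152 replicate 2) without each library in turn. ZW10 passed in all of these settings. With a library left out, the lone library of its group was assumed to vary like the other group. These libraries share only a number in their labels, and the deviations of same-numbered libraries correlated at 0.52 across genes. With the replicate block 74 genes had an adjusted p under 0.05, against 2 without it, and CCNB1 (-0.29) gained an unadjusted call. Of the list genes that passed with the block, ZW10, ANAPC7 and ENSA were higher and the others lower. Of all genes that passed with it, 910 were lower and 978 higher. The median of the 10 genes lay between -0.22 and 0.07 without each library in turn. Outside the left-out libraries, 67 of 70 recomputed siRNA differences of the 10 genes kept their sign, and of those without a library 30 of 40 did. The replicate difference of BUB1B lost its call with size factors, quantile normalization and the length trend removed. That of TTK did so with the length trend removed. Calls were gained by MAD2L1 (higher) with size factors, PLK1 (lower) with quantile normalization and without a filter, and CDCA8 (lower) with the length trend removed. No gene had an adjusted p under 0.05 in the replicate test without a filter, where 3378 had an unadjusted p under 0.05, against 886 adjusted calls with the filter. With the length trend removed 21 did, and INCENP, at an adjusted p of 0.0876, was not among them. With 2 libraries a group and unknown depth, a small difference could not be told from replicate spread. The causes of these shifts were not tested.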

Other observations

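Of 17 genes of DNA replication, 11 were higher in si-152 within both same-numbered pairs and 2 were lower, against 35.7% and 27.3% of all genes, and the list median was 0.16. MCM3, a subunit of the replicative helicase, measured 28.2 and 27.8 FPKM in the si-NC libraries, against 31.5 and 38.9 FPKM with si-152, without overlap. In all, 6 of the 17 lay higher without overlap (MCM2, MCM3, MCM4, MCM7, TYMS and GINS1) and 2 lower (CDC6 and RRM1), beside 16.5% and 14.0% of all genes. MCM5 and MCM6 of the same helicase overlapped between the groups, and their pairs went in opposite directions. CDC6, which loads the helicase, measured 47.0 and 35.4 FPKM in the si-NC libraries, against 35.3 and 33.4 FPKM with si-152, without overlap and lower. None of the 17 had an unadjusted p under 0.05 by limma, and 0 of them had an adjusted p under 0.05. The genes of this list were named after their values were seen.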
